A study of Mus musculus with 12 samples.

Results

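The genes described here encode the subunits of the hypoxia-inducible factors (HIF), the 4 oxygen-dependent hydroxylases that act on them, and the von Hippel-Lindau protein. They were chosen by symbol: Hif1a, Epas1 and Hif3a (alpha subunits), Arnt and Arnt2 (beta subunits), Egln1, Egln2 and Egln3 (prolyl hydroxylases), Hif1an (the asparaginyl hydroxylase) and Vhl. All 10 were found among the 54446 genes in the table of counts. RNA was sequenced from NIH3T3 cells, a line of mouse embryonic fibroblasts, in 4 groups of 3 samples. Wild-type cells were kept in normoxia or in hypoxia (below 0.2% oxygen) for 16 h, and dN-VEGF cells, which carry a deletion, were kept in the same 2 conditions. The deletion removed from both alleles of Vegfa the sequence that codes for N-VEGF, the N-terminal extension of the longest VEGF-A product. It was made with Cas9 and a pair of guide RNAs, through cassettes with mCherry and resistance to puromycin or hygromycin, which VCre recombinase from a retroviral vector then removed before cells were sorted for loss of fluorescence. The methods describe no cassette, virus or sorting for the wild-type cells. Of the clones, 2 were treated with VCre, and the sources used here do not say which one was sequenced, so an effect of the deletion and a difference between clones cannot be told apart.

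HIF is a dimer of an alpha and a beta subunit that binds DNA and raises the transcription of genes used by cells short of oxygen. With oxygen, the prolyl hydroxylases mark the alpha subunit for the von Hippel-Lindau protein, the recognition part of a ubiquitin ligase, and the alpha subunit is degraded. The asparaginyl hydroxylase keeps the remaining alpha subunit from its coactivators. This control acts on protein, which was not measured here, and several hydroxylase genes are textbook targets of HIF.

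Counts on genes numbered 30519052 to 43056690 per sample. Levels are given as CPM, the count scaled to library size with edgeR's TMM factors, which centre the bulk of genes, and, to compare genes with each other, as RPKM, which divides CPM by the length of the gene's exons in kilobases. Pairs of replicates correlated at 0.986 or above in log2 CPM across genes, other than the pairs with replicate 2 of wild-type normoxia, at 0.956 and 0.957. Replicate 2 of dN-VEGF normoxia also stood apart from the other 2 samples of its group, at 0.986, so changed calls without these libraries are given for the 10 genes. For the lists of other genes, counts are given with both libraries left out, for the responses to hypoxia and, for the target genes, between the lines. Changes in these lists without 1 of the libraries are given only for a few named genes and the ligase partners. All 10 fibroblast markers exceeded 1 CPM in every group, and their summed CPM ran from 18305 to 29010 (wild-type normoxia), 28622 to 31017 (wild-type hypoxia), 22760 to 25182 in dN-VEGF normoxia and 46856 to 49188 in dN-VEGF hypoxia. The sums hide markers that fell. By the test below, hypoxia raised 2 and lowered 3 in wild type (18.2% and 18.3% of all genes). In dN-VEGF it raised 6 and lowered 2 (26.9% and 26.4%). Without both normoxia samples numbered 2, 2 rose and 8 fell in wild type (32.8% and 32.5%), and 6 rose and 3 fell in dN-VEGF (35.4% and 36%). Of the markers of other cell types, Ptprc, Adgre1, Epcam and Kdr stood at no more than 3 counts in every group. The summed CPM of the 5 macrophage and leukocyte markers was 4.87 to 13 and 35.6 to 35.9 in wild-type normoxia and hypoxia, and 6.62 to 9.33 and 54.7 to 59 in dN-VEGF. That of the 5 endothelial markers was 3.37 to 5.27 and 7.72 to 9.93 in wild type, and 2.69 to 4.5 and 20.7 to 25.7 in dN-VEGF. The 4 smooth muscle markers summed to 168.5 to 1018 and 2704 to 3125 CPM in wild type, and 478.7 to 902.4 and 2498 to 3050 in dN-VEGF. The 5 epithelial markers summed to 0.697 to 2.44 and 8.18 to 8.8 CPM in wild type, and 0.355 to 1.1 and 1.13 to 1.29 in dN-VEGF. These lists moved with oxygen, and their part in the results was not tested.

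The counts of the edited gene do not check the deletion, since they cover the whole of Vegfa. Vegfa stood at 86.2, 39.4 and 82.6 CPM in wild-type normoxia, at 272.4 to 291.1 when wild type was hypoxic, at 34.2 to 37.3 in dN-VEGF normoxia and at 418.8 to 437.3 in dN-VEGF hypoxia. Its response to hypoxia was larger in dN-VEGF by 1.57 on the log2 scale (standard error, SE, 0.316, adjusted p 0.028).

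The core of the DNA element that HIF binds reads ACGTG or GCGTG, and both spellings were searched on both strands of windows from 250 bases before to 50 bases after the annotated start (RefSeq, GRCm38.p6). Of the 10 genes, 9 had a window, and that of 4 held ACGTG (Hif1a, Egln1, Egln2 and Egln3), against 19.6% of all 32851 windows. With Hif3a and Arnt, 6 held either spelling, against 43.8% of all windows. The windows of Arnt2, Hif1an and Vhl held none. The matches of the spelling ACGTG on the gene's strand that lie before the start are printed below with the core in capitals, so that the genes that rose in hypoxia in both lines (Egln1, Egln3) can be set beside those that did not (Hif1a, Egln2).
Egln1, chr8:124949306-124949335 (minus strand), core 68 bases before the start: ggggccgtggtgtACGTGcagcgcgcgcgg
Egln3, chr12:54204087-54204116 (minus strand), core 229 bases before the start: atgtgcatctcagACGTGagatccaggttt
Egln2, chr7:27166834-27166863 (minus strand), core 48 bases before the start: aagcctcctgtcaACGTGcggttcgcgcac
Hif1a, chr12:73907784-73907813 (plus strand), core 70 bases before the start: ttggctgagagcaACGTGggctggggtggg
Hif1a, chr12:73907720-73907749 (plus strand), core 134 bases before the start: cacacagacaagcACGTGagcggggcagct
This last core is also read on the opposite strand, from 135 bases before the start, since the base before it makes the run a palindrome. In the GENCODE M21 annotation the Egln1 core lies in the first exon of a longer gene model, both Hif1a cores lie in an intron behind a more distant first exon, and the Egln2 and Egln3 cores lie upstream of the gene. A core of these letters was present in genes called up in both lines (Egln1, Egln3) and in genes not called up in both (Hif1a, Egln2). Vhl, which rose in both lines, had none in its window. Sites outside the windows were not searched and binding was not measured. Whether these cores play a part in the responses was not tested.

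Of the 10 genes, 9 passed the filter on low counts and were tested with edgeR's quasi-likelihood test, with adjustment over all 14724 genes tested and a call at an adjusted p below 0.05. In wild-type cells hypoxia raised 3 of the 8 genes other than Hif3a (Egln1, Egln3 and Vhl), against 18.2% of all genes tested that rose. It lowered 1 (Arnt2), against 18.3% that fell. In dN-VEGF cells hypoxia raised 4 of these 8 genes (the same 3 with Hif1a), against 26.9% of all genes, and lowered 1 (Arnt2), against 26.4%. Hif3a passed the filter through dN-VEGF hypoxia alone, so it had to be high there to be tested and is not counted. The median log2 change of the 8 genes without Hif3a was 0.0012 in wild type and 0.50 in dN-VEGF, and that of all genes tested -0.07 and -0.01. The fits with and without both normoxia samples numbered 2 are set side by side in the plot of the hypoxia responses. Without them, 8 of the 8 genes other than Hif3a were called in wild type and 7 of 8 in dN-VEGF, where 65.3% and 71.4% of all genes were called.

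**Figure D1:**
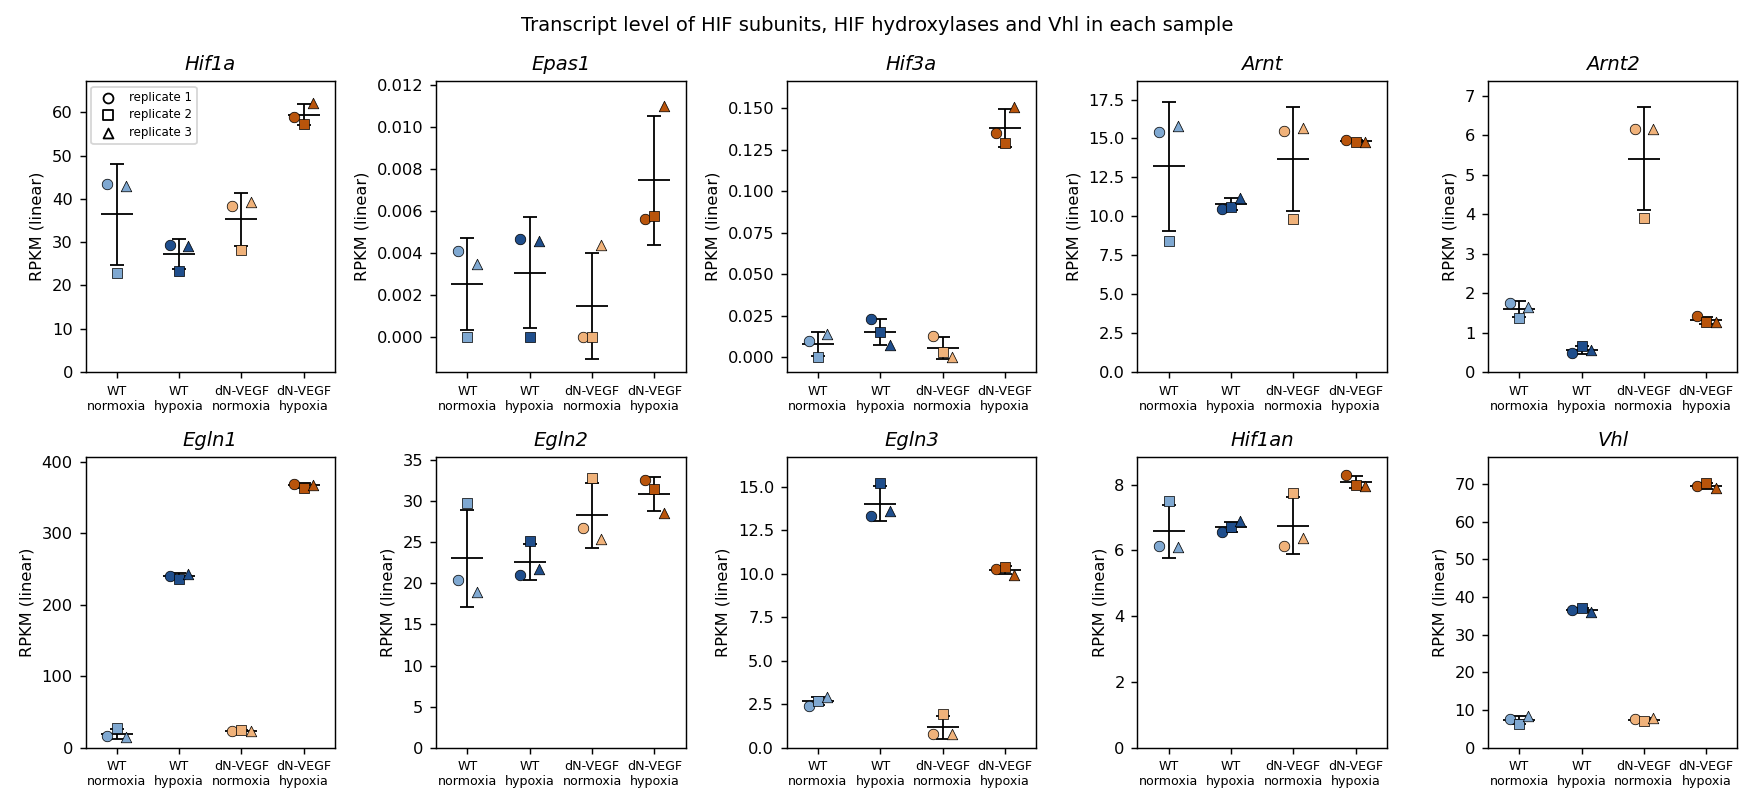
Level of each gene in RPKM (linear axis, own range per panel) in the 12 samples, with the mean (horizontal bar) and SD (whiskers, n = 3 per group) and a marker shape per replicate number. Egln1, Egln3 and Vhl were higher in every hypoxia sample than in any normoxia sample of either line, Epas1 stayed under 0.012 RPKM, and replicate 2 (square) lay low in the normoxia groups for Hif1a and Arnt.

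Hif1a encodes the alpha subunit of HIF-1. It lies at chr12:73901375-73947530 of GRCm38 on the plus strand. Hif1a stood at 255.8, 135.4 and 254.2 CPM in wild-type normoxia and at 173.1, 137.9 and 171.8 CPM in wild-type hypoxia. The groups overlapped, since replicate 2 of normoxia lay below all 3 hypoxia samples while the other 2 lay above them. In dN-VEGF it stood at 226.5, 166.7 and 232 CPM in normoxia and at 347.6, 338.4 and 365.9 CPM in hypoxia. Every hypoxia sample of dN-VEGF lay above the 9 other samples of the series.

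The wild-type difference of Hif1a between hypoxia and normoxia was -0.42 on the log2 scale (SE 0.22, adjusted p 0.16). Without replicate 2 of wild-type normoxia it was -0.66 (adjusted p 0.00085), so the call of a fall rests on leaving out that library. In dN-VEGF, Hif1a rose by 0.75 (1.68-fold, SE 0.22, adjusted p 0.014). The rise missed the threshold without replicate 2 of dN-VEGF normoxia (0.61, adjusted p 0.057), and passed it when both normoxia samples numbered 2 were left out (0.61, adjusted p 4.2e-07). When libraries were scaled by total counts alone it was 0.34 (adjusted p 0.28), on a scale where the median of all genes lay at -0.41. CPM are shares of a library, and in bulk RNA fewer cells of a type and less RNA per cell cannot be told apart.

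The lines differed in Hif1a in hypoxia, where dN-VEGF stood 2.18-fold above wild type (1.12 on the log2 scale, SE 0.222, adjusted p 0.0059). In normoxia the difference was -0.05 (95% interval -0.53 to 0.44, adjusted p 0.93). The difference between the hypoxia responses of the lines was 1.17 (SE 0.311, adjusted p 0.067) and did not pass the threshold. It passed in DESeq2 (adjusted p 0.0086), with the replicate number as a block (1.16, adjusted p 0.028) and without replicate 2 of wild-type normoxia (1.40, adjusted p 4.8e-05). Of the exon length of Hif1a, 5.6% overlaps the antisense gene Gm15283, which had 1 to 31 counts per sample beside 4027 to 13196 for Hif1a. The library kit does not keep strand, so reads in that stretch cannot be assigned to one of the pair.

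Epas1 encodes the alpha subunit of HIF-2, which is abundant in endothelium. It had 0 to 2 counts in each of the 12 samples and was not tested. A count of 0 allows up to 3 counts, or 0.0578 to 0.103 CPM in these libraries, and all samples of all groups stood at or under that floor, so no fold is given.

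Hif3a encodes an alpha subunit with splice forms that inhibit HIF. It had 3, 0 and 5 counts in wild-type normoxia and 6, 3 and 2 counts in wild-type hypoxia. In dN-VEGF it had 4, 1 and 0 counts in normoxia and 29, 27 and 33 counts in hypoxia. Since Hif3a had to be high in dN-VEGF hypoxia to be tested, its values are a description and no p is given. Scaled to library size, its summed counts in dN-VEGF hypoxia exceeded those in dN-VEGF normoxia 24.1-fold (89 against 5 counts, exact 95% counting interval 9.95 to 76). They exceeded those in wild-type hypoxia 9.05-fold (89 against 11 counts, interval 4.82 to 18.8). In wild type the hypoxia to normoxia ratio was 1.78 (11 against 8 counts, interval 0.654 to 5.11). The intervals cover counting error only. Even at its highest, 0.139 RPKM ± 0.011 (SD, n = 3), Hif3a was far below Hif1a, which made up at least 99.7% of the summed RPKM of the 3 alpha subunits in every sample.

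Arnt encodes HIF-1 beta, the common partner of the alpha subunits. Arnt stood at 123.6, 67.6 and 126.3 CPM in normoxic wild type and at 84.1, 84.6 and 89.3 CPM in hypoxic wild type. It stood at 123.7, 78.9 and 126 CPM in dN-VEGF normoxia and at 118.4 to 118.9 CPM in dN-VEGF hypoxia. In both lines the normoxia sample numbered 2 lay below the hypoxia samples, and the groups overlapped. No comparison of Arnt passed the threshold in the fit of all 12 samples. The hypoxia difference was -0.30 in wild type (95% interval -0.80 to 0.20, adjusted p 0.33) and 0.12 in dN-VEGF (95% interval -0.38 to 0.61, adjusted p 0.69). Without replicate 2 of wild-type normoxia, Arnt fell in wild type by 0.53 (log2, adjusted p 0.0082). In hypoxia all dN-VEGF samples lay above all wild-type samples, by 0.46 (SE 0.226, adjusted p 0.18). That difference was called without replicate 2 of wild-type normoxia (0.46, adjusted p 0.014), without both normoxia samples numbered 2 and in the 6 hypoxia samples alone. The difference between the responses of Arnt was 0.41 (adjusted p 0.49), and without replicate 2 of wild-type normoxia 0.64 (adjusted p 0.019).

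Arnt2, which encodes a second beta subunit best known from brain and kidney, fell in hypoxia in both lines and was higher in dN-VEGF in both conditions. It stood at 13.6, 10.4 and 12.7 CPM in wild-type normoxia and at 3.63, 5.14 and 4.28 CPM in wild-type hypoxia. The dN-VEGF samples stood at 47.3, 30 and 47.4 CPM in normoxia and at 10.8, 9.68 and 9.72 CPM in hypoxia. None of the 4 comparisons had overlapping groups, and the order of the groups from high to low was dN-VEGF normoxia, wild-type normoxia, dN-VEGF hypoxia and wild-type hypoxia, of which the middle pair overlapped (10.4 to 13.6 and 9.68 to 10.8 CPM). The fall was 2.82-fold in wild type (-1.49 on the log2 scale, SE 0.197, adjusted p 0.00016) and 4.13-fold in dN-VEGF (-2.05, SE 0.195, adjusted p 8e-06). The difference between these falls was -0.55 (95% interval -1.15 to 0.04, adjusted p 0.27), and without both normoxia samples numbered 2 it was -0.64 (adjusted p 0.00067).

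Between the lines, dN-VEGF exceeded wild type in Arnt2 3.4-fold in normoxia (1.77 on the log2 scale, SE 0.192, adjusted p 0.00084) and 2.32-fold in hypoxia (1.21, SE 0.197, adjusted p 0.0021). In the fit of the 6 normoxia samples alone the normoxia difference was 1.77 with an adjusted p of 0.089, and with the replicate number as a block in addition 1.75 with 0.11, where 1 of all genes was called. Per length, Arnt2 made up 9.46% to 13.8% of Arnt and Arnt2 together in wild-type normoxia, 4.3% to 5.95% in wild-type hypoxia, 28.1% to 28.5% in dN-VEGF normoxia and 7.84% to 8.65% in dN-VEGF hypoxia. In replicate 2 of dN-VEGF normoxia both genes were low, and the share was within the range of the other 2.

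**Figure D2:**
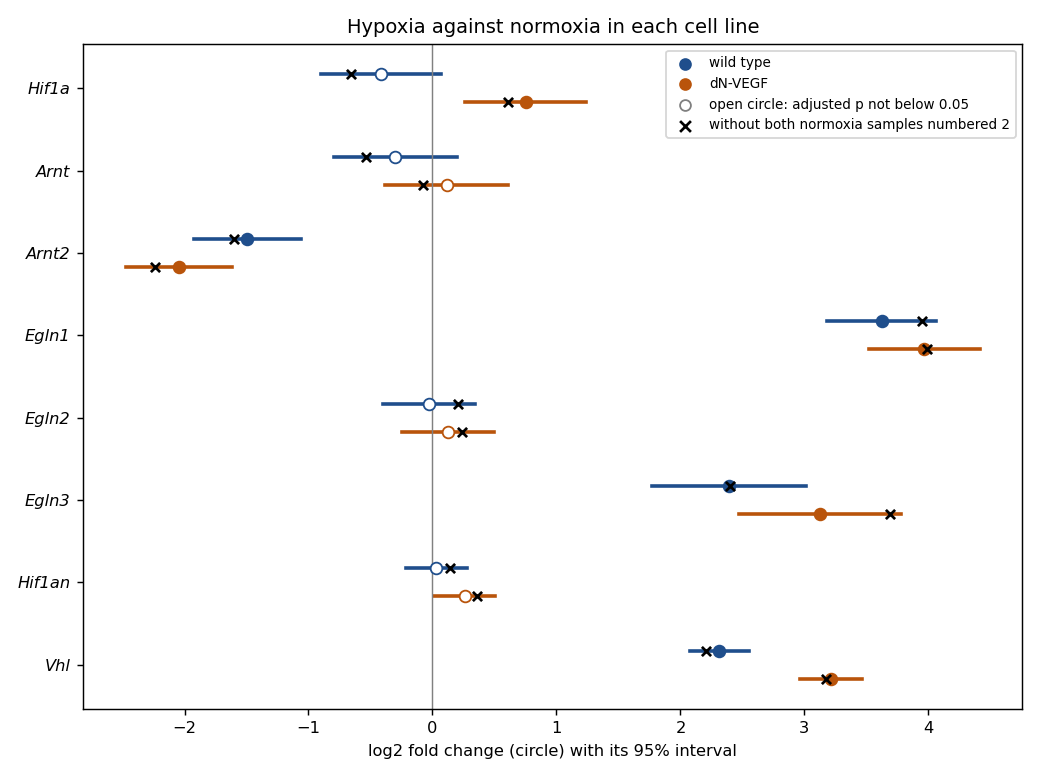
Log2 fold change of hypoxia over normoxia in wild type and dN-VEGF for the 8 genes tested other than Hif3a, with the 95% interval (line), filled circles for an adjusted p below 0.05 and crosses for the fit without both normoxia samples numbered 2. Egln1 (3.62 and 3.97), Egln3 and Vhl lay to the right in both lines, Arnt2 to the left in both, and Hif1a on opposite sides of 0.

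Egln1 encodes PHD2, the main prolyl hydroxylase of HIF-1 alpha in most cells, and it had the largest rise of the 10 genes in wild type. Egln1 stood at 58, 98.3 and 54.3 CPM in wild-type normoxia and at 865.4, 850.7 and 876.7 CPM in wild-type hypoxia. The dN-VEGF samples stood at 83.7, 87.2 and 82.2 CPM in normoxia and at 1328, 1308 and 1323 CPM in hypoxia. The order from high to low was dN-VEGF hypoxia, wild-type hypoxia and then both normoxia groups, which overlapped, since replicate 2 of wild-type normoxia lay above all dN-VEGF normoxia samples and the other 2 below them. The rise was 12.3-fold in wild type (3.62 on the log2 scale, SE 0.2, adjusted p 2.7e-07) and 15.6-fold in dN-VEGF (3.97, SE 0.203, adjusted p 8.2e-08). The difference between the rises was 0.34 (95% interval -0.22 to 0.91, adjusted p 0.47).

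In hypoxia Egln1 was 1.53-fold higher in dN-VEGF than in wild type (0.61 on the log2 scale, SE 0.18, adjusted p 0.036). This call was lost without any one of the hypoxia samples of either line (adjusted p 0.096 to 0.11) and without replicate 1 or 3 of dN-VEGF normoxia (0.058 and 0.057), while the difference itself stayed between 0.60 and 0.62. Under scaling by total counts alone the difference was 0.39 (adjusted p 0.05, not called), beside a median of -0.24 over all genes. In normoxia the difference was 0.27 (adjusted p 0.47), and without replicate 2 of wild-type normoxia 0.60 (adjusted p 1.8e-05).

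Egln2 encodes PHD1, and none of its comparisons passed the threshold when all 12 samples were fitted without a block. Egln2 stood at 57.1, 83.4 and 52.9 CPM in wild-type normoxia and at 58.9, 70.2 and 60.6 CPM in wild-type hypoxia. The dN-VEGF samples stood at 74.7, 91.9 and 71.1 CPM in normoxia and at 90.9, 88.3 and 79.8 CPM in hypoxia. Replicate 2 was the highest sample of both normoxia groups, and hypoxia and normoxia overlapped in each line. The hypoxia difference was -0.03 in wild type (95% interval -0.40 to 0.34, adjusted p 0.91) and 0.12 in dN-VEGF (95% interval -0.25 to 0.49, adjusted p 0.56). These intervals lie below the rises of Egln1 and Egln3. In hypoxia all dN-VEGF samples lay above all wild-type samples, with a difference of 0.45 (SE 0.168, adjusted p 0.083). That difference passed without replicate 2 of wild-type normoxia (adjusted p 0.0037), without both normoxia samples numbered 2 (1e-05), in the 6 hypoxia samples alone (5.9e-05) and with the replicate number as a block (0.023). In normoxia the difference was 0.30 (95% interval -0.07 to 0.67, adjusted p 0.38), with overlapping groups, and without replicate 2 of wild-type normoxia 0.54 (adjusted p 0.0022). Without both normoxia samples numbered 2, the hypoxia difference was 0.21 in wild type (adjusted p 0.022) and 0.24 in dN-VEGF (adjusted p 0.0074). Egln2 and Cyp2t4 on the opposite strand share 11 bases of exon, and Cyp2t4 had 4 to 8 counts per sample.

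Egln3 encodes PHD3, and it rose in both lines from low levels. Egln3 stood at 6.44, 7.2 and 7.71 CPM in wild-type normoxia and at 35.5, 40.5 and 36.2 CPM in wild-type hypoxia. In dN-VEGF it stood at 2.09, 5.14 and 2.11 CPM in normoxia and at 27.3, 27.7 and 26.5 CPM in hypoxia. No groups overlapped, and the order from high to low was wild-type hypoxia, dN-VEGF hypoxia, wild-type normoxia and dN-VEGF normoxia. The rise was 5.25-fold in wild type (2.39 on the log2 scale, SE 0.282, adjusted p 7.3e-05) and 8.73-fold in dN-VEGF (3.13, SE 0.296, adjusted p 7.6e-06). The difference between the rises was 0.73 (SE 0.387, adjusted p 0.31), and without replicate 2 of dN-VEGF normoxia 1.29 (adjusted p 0.0028).

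Between the lines Egln3 was lower in dN-VEGF. In normoxia it was 2.29-fold lower (-1.19 on the log2 scale, SE 0.283, adjusted p 0.042). That call was lost without replicate 1 or 3 of wild-type normoxia (adjusted p 0.088 and 0.13), replicate 1 or 3 of dN-VEGF normoxia (both 0.15), or any one hypoxia sample of either line (0.068 to 0.074). In the 6 normoxia samples alone the adjusted p was 0.4, and with the replicate number as a block in addition 0.25. Without replicate 2 of dN-VEGF normoxia the difference was -1.76 (adjusted p 6.7e-05). In hypoxia it was -0.46 (SE 0.267, adjusted p 0.26), with the groups apart. That difference was called without replicate 2 of dN-VEGF normoxia (-0.46, adjusted p 0.0085), without both normoxia samples numbered 2 (-0.46, 1.1e-05) and in the 6 hypoxia samples alone (-0.47, 2e-05).

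Per length, the prolyl hydroxylase genes changed order with oxygen, which rests on exon lengths of 3594 bases for Egln1 and 2800 for Egln2. In CPM, Egln1 already had the higher mean in normoxia (70.2 against 64.5 in wild type, 84.4 against 79.2 in dN-VEGF), with overlapping ranges. The summed RPKM of the 3 Egln genes was 36.9 to 59.8 in normoxic wild type and 275.2 to 279.2 after hypoxia. It was 49.1 to 59 in dN-VEGF normoxia and 405.8 to 412.3 in dN-VEGF hypoxia. Egln2 held the larger share in normoxia, with 49.8% to 52.4% in wild type and 51.7% to 55.6% in dN-VEGF, against 41% to 45.7% and 41.1% to 46.6% for Egln1. In hypoxia Egln1 held 85.5% to 87.5% in wild type and 89.6% to 90.5% in dN-VEGF, and Egln2 less than 10%. The share of Egln3 did not exceed 7.84% in any sample, although Egln3 rose in both lines. Its share was 4.84% to 5.5% in wild-type hypoxia and 2.44% to 2.57% in dN-VEGF hypoxia.

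**Figure D3:**
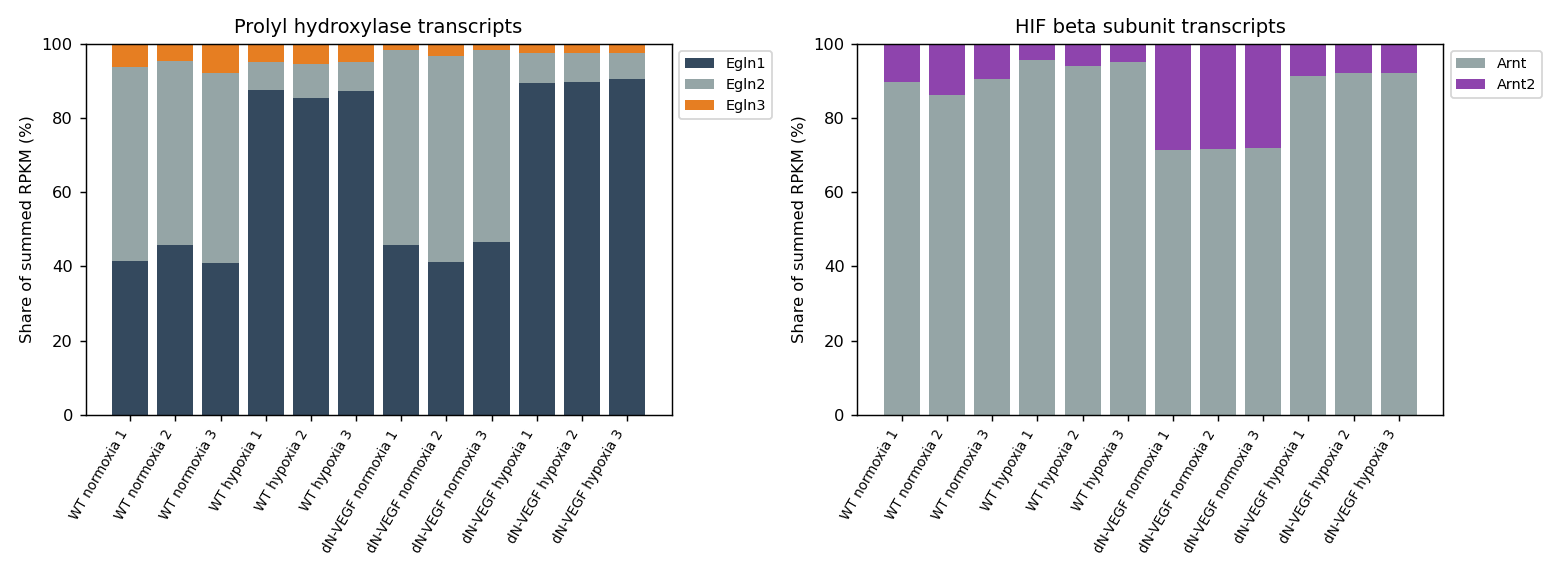
Share of summed RPKM (%) of Egln1, Egln2 and Egln3 (left) and of Arnt and Arnt2 (right) in each of the 12 samples, as stacked bars that sum to 100%. Egln1 rose from 41% to 46.6% of the Egln transcripts in normoxia to 85.5% to 90.5% in hypoxia, and Arnt2 held 28.1% to 28.5% in dN-VEGF normoxia against 4.3% to 13.8% in the other groups.

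Hif1an encodes FIH, the asparaginyl hydroxylase, and its group means lay between 43.5 and 53.4 CPM. Hif1an stood at 40.6, 49.6 and 40.3 CPM in wild-type normoxia and at 43.4, 44.3 and 45.5 CPM in wild-type hypoxia. Those of dN-VEGF stood at 40.6, 51.1 and 42.2 CPM in normoxia and at 54.9, 52.7 and 52.6 CPM in hypoxia. The dN-VEGF hypoxia samples were the highest of the series, and the other groups overlapped. The hypoxia difference was 0.03 in wild type (95% interval -0.21 to 0.28, adjusted p 0.85) and 0.26 in dN-VEGF (95% interval 0.01 to 0.50, adjusted p 0.071). The dN-VEGF difference passed without replicate 2 of wild-type normoxia (0.25, adjusted p 0.017) and without replicate 2 of dN-VEGF normoxia (0.36, adjusted p 0.02), and under scaling by total counts alone it was -0.14 (adjusted p 0.17) beside a median of -0.41 over all genes. Between the lines in hypoxia the difference was 0.27 (adjusted p 0.12), and without replicate 2 of wild-type normoxia 0.26 (adjusted p 0.022). Without both normoxia samples numbered 2, the wild-type response was 0.14 (adjusted p 0.037) and the difference between the responses 0.22 (adjusted p 0.028).

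Vhl encodes the recognition subunit of the ubiquitin ligase that binds hydroxylated alpha subunits. It lies at chr6:113623959-113631633 of GRCm38 on the plus strand. Vhl stood at 22.7, 18.5 and 25 CPM in wild-type normoxia and at 109.9, 111.4 and 107.9 CPM in wild-type hypoxia. Those of dN-VEGF stood at 22.5, 21.5 and 23.4 CPM in normoxia and at 208.4, 211.1 and 206.4 CPM in hypoxia. The normoxia groups overlapped, wild-type hypoxia lay above both, and dN-VEGF hypoxia lay above wild-type hypoxia. The rise was 4.97-fold in wild type (2.31 on the log2 scale, SE 0.108, adjusted p 9.6e-08) and 9.28-fold in dN-VEGF (3.21, SE 0.112, adjusted p 5.6e-09). By p-value Vhl ranked 39th and 28th among all genes tested in these comparisons, ahead of Egln1 (79th and 120th), which changed more but with a wider spread. The pseudogene Vhl-ps1 had 0 counts in every sample.

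In the fit of all 12 samples without a block, Vhl was the only one of the 8 genes other than Hif3a called for a difference between the responses of the lines, against 3.36% of all genes tested that differed in either direction. Hif1a was called as well in DESeq2, with the replicate number as a block, without the filter on low counts and without replicate 2 of wild-type normoxia, where Arnt was also called, and Egln3 without replicate 2 of dN-VEGF normoxia. The rise of Vhl was larger in dN-VEGF by 0.90 on the log2 scale (SE 0.146, 95% interval 0.58 to 1.22, adjusted p 0.013). The call was lost without replicate 1 of wild-type hypoxia (0.89, adjusted p 0.051), without replicate 1 of dN-VEGF hypoxia (0.89, adjusted p 0.05) and with total counts (0.74, adjusted p 0.054). Without both normoxia samples numbered 2 it was 0.97 (adjusted p 7.6e-09), and 6 of the 8 genes other than Hif3a were then called, with 52.8% of all genes.

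The comparison of the lines in hypoxia shares the dN-VEGF hypoxia samples with the dN-VEGF response, so the calls of Hif1a, Egln1 and Vhl in both rest on the same libraries. In normoxia, 1 of the 8 genes other than Hif3a was higher in dN-VEGF (Arnt2), against 1.39% of all genes tested, and 1 was lower (Egln3), against 2.97%. In hypoxia, 4 of the 8 genes other than Hif3a were higher in dN-VEGF (Hif1a, Arnt2, Egln1 and Vhl), against 10.8% of all genes tested. None was called lower by edgeR in the fit of all 12 samples, against 9.36% of all genes, none had an unadjusted p below 0.05 in that direction, and DESeq2 called none, whereas Egln3 was called lower in the 3 other fits given with its values. Vhl in hypoxia was 1.9-fold higher (0.93 on the log2 scale, SE 0.103, adjusted p 0.00029), and in normoxia its difference was 0.03 (95% interval -0.20 to 0.25). Without both normoxia samples numbered 2, 4 of the 8 genes other than Hif3a were called in normoxia and 8 of 8 in hypoxia, where 53.6% and 55.8% of all genes were called.

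**Figure D4:**
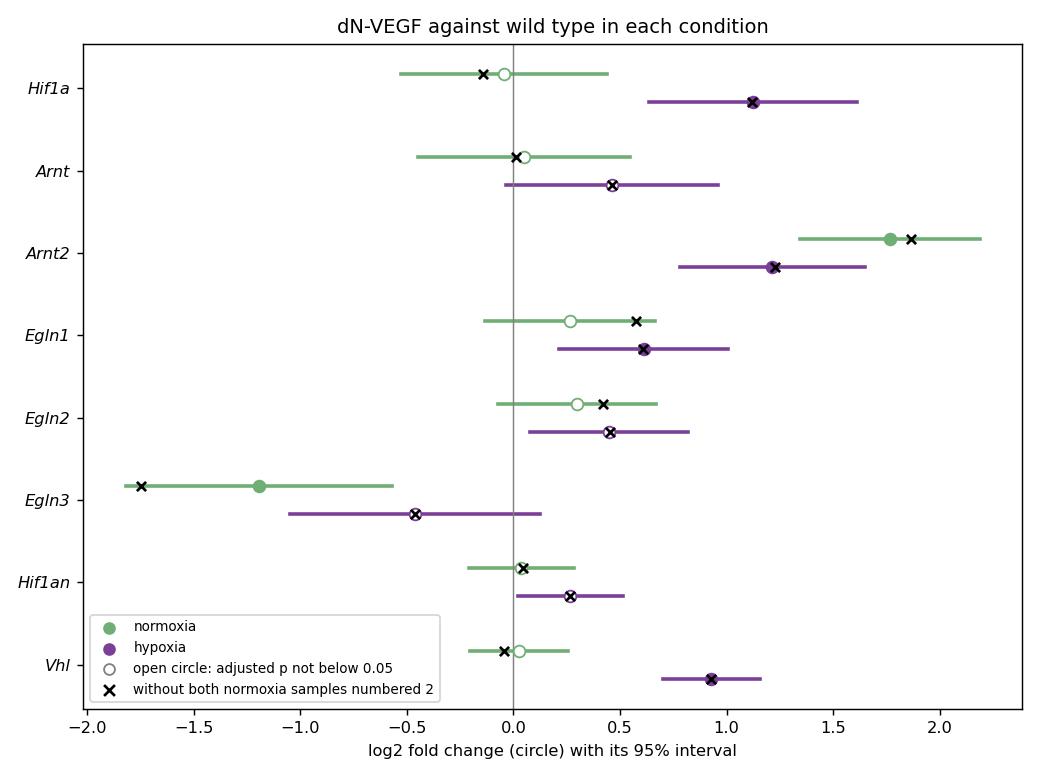
Log2 fold change of dN-VEGF over wild type in normoxia and in hypoxia for the 8 genes tested other than Hif3a, with the 95% interval (line), filled circles for an adjusted p below 0.05 and crosses for the fit without both normoxia samples numbered 2. In hypoxia Hif1a (1.12), Arnt2 (1.21), Egln1 (0.61) and Vhl (0.93) were called above 0, and in normoxia Arnt2 (1.77) and Egln3 (-1.19) were called.

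**Figure D5:**
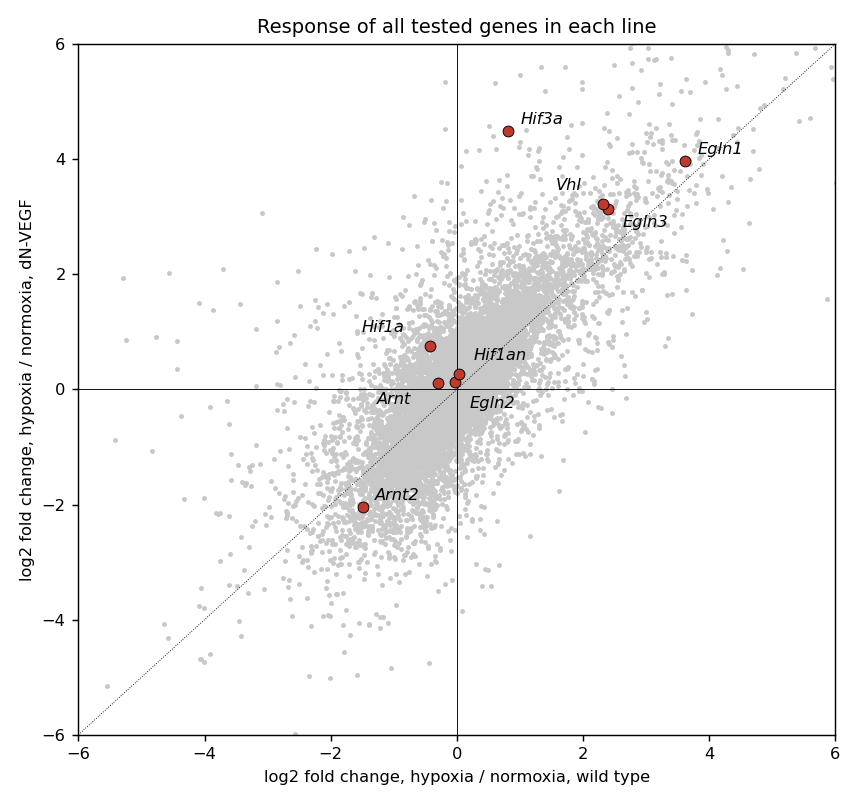
Log2 fold change of hypoxia over normoxia in wild type (horizontal) and in dN-VEGF (vertical) for 14626 of the 14724 genes tested (grey; the other 98 lie beyond 6 on an axis), with the 9 tested genes of the pathway in red and a dotted line where both are equal. Egln1, Egln3 and Vhl lay in the upper right, Arnt2 in the lower left, Hif3a near the upper edge of the cloud, and Hif1a, Arnt, Egln2 and Hif1an close to the centre.

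Ranked by mean RPKM, wild-type normoxia had Hif1a (36.5 ± 11.7, SD, n = 3), Egln2 (23 ± 5.91), Egln1 (19.5 ± 6.79), Arnt (13.2 ± 4.14), Vhl (7.36 ± 1.09), Hif1an (6.58 ± 0.802), Egln3 (2.67 ± 0.24) and Arnt2 (1.59 ± 0.21). The ranges over samples of Hif1a, Egln2 and Egln1 overlapped, as did those of Egln1 and Arnt and those of Vhl and Hif1an. In dN-VEGF hypoxia the order was Egln1 (367.2 ± 2.99), Vhl (69.6 ± 0.798), Hif1a (59.5 ± 2.37), Egln2 (30.8 ± 2.08), Arnt (14.8 ± 0.0319), Egln3 (10.2 ± 0.243), Hif1an (8.08 ± 0.192) and Arnt2 (1.31 ± 0.0831), with no overlap between neighbours. In wild-type hypoxia, Vhl (36.6 ± 0.597) also stood above Hif1a (27.3 ± 3.38), which it had not done in normoxia. This order rests on the exon lengths. In CPM the mean of Vhl stayed below that of Hif1a in hypoxia (109.7 against 160.9 in wild type, 208.6 against 350.6 in dN-VEGF).

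Of the partners of the von Hippel-Lindau protein in its ligase, Elob, Eloc, Cul2 and Rbx1, edgeR called 0 of 4 in wild type, where 18.2% of all genes rose and 18.3% fell, none of the 4 had an unadjusted p below 0.05 and DESeq2 called none. In dN-VEGF, 2 of 4 fell, against 26.4% of all genes: Cul2, the scaffold, by 0.64 on the log2 scale (SE 0.15, adjusted p 0.0043) and Rbx1, the RING subunit, by 0.49 (SE 0.182, adjusted p 0.04). Their median log2 change was -0.17 in wild type and -0.45 in dN-VEGF. Rbx1 was not called without replicate 2 of dN-VEGF normoxia (-0.38, adjusted p 0.14). Without replicate 2 of wild-type normoxia, 0 of 4 were called in wild type and 4 of 4 fell in dN-VEGF, against 34.3% of all genes. With both normoxia samples numbered 2 left out, 1 of 4 rose in wild type and 3 of 4 fell in dN-VEGF, where 32.8% of all genes rose and 36% fell.

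Of 8 coactivators and CITED inhibitors of HIF, 7 were tested. In wild type 1 rose and 1 fell, and in dN-VEGF 2 rose and 2 fell, where of all genes 18.2% rose and 18.3% fell in wild type and 26.9% and 26.4% in dN-VEGF. Cited2, which competes with HIF-1 alpha for CBP and p300, rose in both lines, by 1.59 in wild type (SE 0.16, adjusted p 2.3e-05) and by 1.38 in dN-VEGF (SE 0.159, adjusted p 3.2e-05). Ncoa2, a coactivator, fell in both, by 0.54 (SE 0.113, adjusted p 0.0034) and by 0.34 (SE 0.113, adjusted p 0.026). In dN-VEGF, Crebbp, which encodes CBP, rose by 0.29 (SE 0.095, adjusted p 0.023) and Ncoa3 fell by 0.44 (SE 0.104, adjusted p 0.0041). Crebbp was not called without replicate 2 of dN-VEGF normoxia (0.26, adjusted p 0.063). In the fit without both normoxia samples numbered 2, 1 rose and 3 fell in wild type (32.8% and 32.5% of all genes), and 3 rose and 2 fell in dN-VEGF (35.4% and 36%).

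Of 12 genes for turnover and folding of HIF, its hydroxylases and VHL, 11 were tested. Hypoxia raised 2 in wild type, against 18.2% of all genes, and 4 in dN-VEGF, against 26.9%, and none was called lower, against 18.3% and 26.4%. No gene of this list had an unadjusted p below 0.05 for a fall in either line, and DESeq2 called none lower. Siah2, a ubiquitin ligase for prolyl hydroxylases, rose by 1.39 in wild type (SE 0.119, adjusted p 6.5e-06) and by 1.93 in dN-VEGF (SE 0.12, adjusted p 3.4e-07). Wsb1, a ubiquitin ligase subunit that acts on the von Hippel-Lindau protein, rose by 1.67 (SE 0.112, adjusted p 1.2e-06) and by 1.92 (SE 0.113, adjusted p 2.3e-07). Rack1, which binds HIF-1 alpha independently of oxygen, rose in dN-VEGF by 0.51 (SE 0.0924, adjusted p 0.00086). When both normoxia samples numbered 2 were left out, 6 rose in wild type, against 32.8% of all genes, and 5 rose and 3 fell in dN-VEGF, against 35.4% and 36%.

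Among 11 other factors of the same bHLH-PAS family, 8 were tested. Hypoxia raised 2 and lowered 1 in wild type (18.2% and 18.3% of all genes), and raised 1 and lowered 3 in dN-VEGF (26.9% and 26.4% of all genes). Npas4 rose by 1.60 in wild type (SE 0.328, adjusted p 0.003) and by 1.34 in dN-VEGF (SE 0.329, adjusted p 0.0053). Npas1, at under 1 CPM in all samples, fell by 0.82 (SE 0.272, adjusted p 0.036) and by 1.24 (SE 0.307, adjusted p 0.0057). Arntl, a clock factor, rose in wild type by 0.80 (SE 0.165, adjusted p 0.003), and Arntl2 fell in dN-VEGF by 1.12 (SE 0.397, adjusted p 0.033). The fall of Npas1 in wild type was not called without replicate 2 of wild-type normoxia (-0.59, adjusted p 0.095). Without both normoxia samples numbered 2, 2 rose and 2 fell in wild type (32.8% and 32.5% of all genes), and 2 rose and 4 fell in dN-VEGF (35.4% and 36%).

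Of 26 textbook target genes of HIF, all tested, hypoxia raised 24 and lowered none in each line (18.2% of all genes rose in wild type and 26.9% in dN-VEGF), with a median log2 change of 2.73 in wild type and 3.29 in dN-VEGF. The remaining 2 were Pfkfb4 and Slc16a3, with -0.20 and 0.29 in wild type and -0.28 and 0.19 in dN-VEGF, and no gene of the list had an unadjusted p below 0.05 for a fall in either line. Ero1l, an oxidase of protein folding, rose by 5.06 in wild type (SE 0.159, adjusted p 5e-09) and by 6.22 in dN-VEGF (SE 0.168, adjusted p 1.1e-09). Car9, a carbonic anhydrase, rose by 5.38 (SE 0.393, adjusted p 2.1e-06) and by 5.84 (SE 0.399, adjusted p 6.6e-07). Ankrd37 rose by 5.42 (SE 0.195, adjusted p 1.1e-08) and by 4.67 (SE 0.187, adjusted p 1.6e-08). In normoxia 3 targets were higher in dN-VEGF than in wild type and 2 lower, against 1.39% and 2.97% of all genes. In hypoxia 8 targets were higher in dN-VEGF than in wild type, against 10.8% of all genes, and 1 (Pfkfb4) was lower, against 9.36%. The responses of 3 differed between the lines (Vegfa, P4ha2 and Ero1l, all larger in dN-VEGF), against 3.36% of all genes. Without both normoxia samples numbered 2, 24 again rose in each line and Pfkfb4 fell in wild type (-0.29, adjusted p 0.019), 20 were higher and 3 lower in hypoxic dN-VEGF than in hypoxic wild type (27.5% and 28.3% of all genes), and the responses of 11 were larger and of 9 smaller in dN-VEGF (25.8% and 27%). Vegfa, P4ha2 and Ero1l were among the 11. In that fit 14 targets were higher and 9 lower in normoxic dN-VEGF than in normoxic wild type (27.8% and 25.8% of all genes).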

How the data were processed

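The authors prepared libraries with the TruSeq RNA v2 kit from Trizol RNA, sequenced single 80-bp reads, trimmed them (Trim Galore, cutadapt 1.10), aligned them to GRCm38.p6 with TopHat2 2.1.0 and Bowtie2 2.2.6, and deposited raw counts per gene from HTSeq 0.6.1. Whether counting used strand is not given in the sources used here.

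Genes were tested with edgeR 4.0.16 in R 4.3.3 (limma 3.58.1 as its library). One model held the 12 samples with a mean for each of the 4 groups, after filterByExpr and TMM scaling. P-values came from the quasi-likelihood F test, with Benjamini-Hochberg over the 14724 genes that passed the filter. Each SE was derived from that test, as the absolute log2 fold change over the square root of F. The 95% intervals of log2 fold changes used this SE and a t quantile. Genes were called whatever their fold where the adjusted p was below 0.05. RPKM used the union of exons in GENCODE M21 (GRCm38), where 98.2% of the genes had the same position. Hif3a ratios have exact 95% binomial intervals. The genes and lists were chosen with earlier results of these data known. Of each other list, cell type markers aside, up to 3 of the largest rises and falls per hypoxia comparison were named. These came from called genes whose samples did not overlap. A few more were named after their values were seen (targets with no call, or called between the lines). Labels gave groups and replicate numbers but not whether samples were separate cultures, so p-values measure the spread between these samples, which may be technical. Samples with the same number deviated together from their group means between the normoxia groups, with correlations across genes of 0.36 to 0.50. In the other comparisons of 2 groups they were -0.02 to 0.11. Replicates 1 and 3 correlated at 0.996 in both normoxia groups, so a shared departure of the samples numbered 2 can alone give such values. They do not show that number 1 pairs with 1 or 3 with 3. Alternatives were DESeq2 1.42.0, RLE size factors, total counts, no filter, 10 or more counts in each sample, a fold of at least 2, the 6 samples compared, each sample left out, both normoxia samples numbered 2 left out, and the replicate number as a block. The block within the 6 normoxia samples was added after seeing the data. The fit was tested on simulated counts. The 3 genes whose log2 CPM followed Hif1a and Egln3 most closely were to be named, of which 1 is not reported here.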

Additional observations from a re-analysis of the deposited data

Results flagged for a closer look

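The hypoxia response of Vhl differed between the lines by a test of the difference itself: the rise in dN-VEGF exceeded that in wild type by 0.90 on the log2 scale (adjusted p 0.013, edgeR's interaction term), with all 3 dN-VEGF hypoxia samples at 206.4 to 211.1 CPM and all 3 wild-type hypoxia samples at 107.9 to 111.4 CPM. The call of Vhl was kept in 16 of 20 alternatives and lost in 4: total counts (0.74, adjusted p 0.054), a fold of at least 2, without wild type hypoxia replicate 1 (0.89, adjusted p 0.051) and without dN-VEGF hypoxia replicate 1 (0.89, adjusted p 0.05). Of the other genes, leaving out Hif3a, none was called for this difference in the same fit, while Hif1a was called in 5 of the 20 alternatives, Arnt and Egln3 in 2 each, and Arnt2 and Hif1an in 1 each.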

How the results depend on the processing

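With both normoxia samples numbered 2 left out, 8 of the 9 genes were called for hypoxia in wild type (4 in the reported fit), 4 between the lines in normoxia (2), 9 between the lines in hypoxia (5) and 7 for the difference between responses (1), and Egln2 turned from -0.03 to 0.21 (adjusted p 0.022) in wild type. These and the following counts include Hif3a, which was tested through dN-VEGF hypoxia alone. Without it the counts just given were 8, 4, 8 and 6 of 8, where 65.3%, 53.6%, 55.8% and 52.8% of all genes were called. In fits of the 6 samples compared, 0 were called in normoxia (0.108% of all genes), where DESeq2 over all 12 samples called 2 (8.16% of all genes). In hypoxia such a fit called 9 (8 without Hif3a, 57% of all genes). Adding the replicate block to the 6 normoxia samples also gave 0, of 8 tested. A fold of at least 2 left 3 between the lines in hypoxia (2 without Hif3a, 6.81% of all genes) and 0 for the difference between responses (1.56%). That difference was called for 3 genes by DESeq2 (2 without Hif3a, 10.3% of all genes), 0 with total counts (6.13%), 2 with no filter (1.47%) and 2 with the replicate block over all samples (3.29%), which added Hif1a. The replicate block gave 4, 7, 2 and 6 calls in the other comparisons (4, 6, 2 and 5 without Hif3a), where 38.6%, 55.5%, 4.37% and 22% of all genes were called, adding Hif1an to the dN-VEGF response and Egln2 to the lines in hypoxia. Leaving out 1 sample gave 4 to 6 calls in the wild-type response, 6 to 7 in dN-VEGF, 1 to 4 between the lines in normoxia, 4 to 8 in hypoxia and 0 to 4 for the difference between responses (without Hif3a 4 to 6, 5 to 6, 1 to 4, 3 to 7 and 0 to 3). The shares of all genes called in these fits ran from 26.8% to 54%, 42.9% to 67.1%, 1.1% to 48.9%, 10.1% to 42.4% and 0.493% to 44.4%. With replicate 2 of wild-type normoxia left out, there were 4 in normoxia, 8 in hypoxia and 4 for the difference between responses (4, 7 and 3 without Hif3a), where 48.9%, 42.4% and 44.4% of all genes were called. Leaving out replicate 2 of dN-VEGF normoxia gave 2 for that difference (4.76% of all genes), and replicate 1 of wild-type or of dN-VEGF hypoxia 0 (0.562% and 0.493%). The samples that gave 1 in normoxia are those named for Egln3. Total counts moved the median of all genes to -0.30 and -0.41 in the responses and -0.24 between the lines in hypoxia, and the share of calls that rose to 28.2%, 25.6% and 17.1%. The rises of Egln1, Egln3 and Vhl and the fall of Arnt2 in both lines, and Hif1a and Arnt2 between the lines in hypoxia, were called in all 21 alternatives. The cause of these changes was not tested. Depth limits Epas1 and Hif3a.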

Other observations

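Among 8515 genes with a mean of at least 10 CPM, the log2 CPM of Trim25 (Pearson r 0.991) and Rmnd5a (0.967) followed Hif1a most closely over the 12 samples, and those of Cisd3 (0.991), Stx18 (0.989) and Lpin3 (0.987) followed Egln3. These values describe 12 points that share 4 groups and the low or high replicate 2. Trim25 stood at 76.5, 51.4 and 77 CPM in wild-type normoxia, 53.9 to 59.1 in wild-type hypoxia, 54.9 to 70.8 in dN-VEGF normoxia and 90.9 to 93.2 in dN-VEGF hypoxia. It thus shared with Hif1a the low replicate 2 of normoxia and the high level in hypoxic dN-VEGF. Cisd3 stood at 10.9 to 11.9 CPM in wild-type normoxia, 30.1 to 34.2 in wild-type hypoxia, 5.07 to 6.66 in dN-VEGF normoxia and 25.2 to 28.8 in dN-VEGF hypoxia, the same order of groups as Egln3.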
